A study of Rattus norvegicus with 82 samples.

Results

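The genes described are 7 that encode chaperones and folding helpers of the endoplasmic reticulum (ER): Sdf2l1, Hspa5, Hsp90b1, Pdia4, Calr, Manf and Dnajb11. They were chosen by their gene symbols in the array's annotation after results of these arrays were known. Sdf2l1 had been selected on its difference between morning and evening. All 7 were measured, each by 1 probe set, and they are 7 of the 14217 genes named among the 31042 probe sets tested. No array had any of them at the lower limit of the scale.

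The arrays measured total RNA from rat brain, 82 in all, from 7 regions: the hypothalamus, amygdala and septum, the dorsal raphe and locus coeruleus of the brainstem, and the hippocampus and frontal cortex. Rats are labelled Sham, ADX or pADX, and tissue is labelled AM or PM. In rat studies ADX usually means that the adrenals were taken out (adrenalectomy) and Sham that surgery left them in place. The labels do not say what the p in pADX stands for, nor the strain, sex and age of the rats, the clock times, or whether tissue was pooled. Region, treatment and time made 41 groups out of 80 arrays, with 2 arrays per group, except that in the frontal cortex Sham and ADX had 1 AM array each. Both pADX arrays of the hippocampus are labelled PM, so this region has no pADX difference between times. Nothing says that the 2 arrays of a group came from separate animals, so the spread between them may be technical.

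The ER is where secreted and membrane proteins are folded. Hspa5 (BiP) is its Hsp70 chaperone, which holds unfolded chains and is driven by co-chaperones such as Dnajb11 (ERdj3), with which Sdf2l1 forms a complex. Hsp90b1 (Grp94) is the ER's Hsp90, Calr (calreticulin) a calcium-binding chaperone for glycoproteins, Pdia4 (ERp72) a protein disulfide isomerase, and Manf a neurotrophic factor that resides in the ER and binds Hspa5. When unfolded proteins build up, the unfolded protein response raises ER chaperone genes through the transcription factors Atf6 and Xbp1. These act at the ER stress element where a promoter holds it.

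The promoters are shown because this element is known from ER chaperone promoters. Whether it bears on the signals at AM and PM was not tested. RefSeq (build GRCr8) gave promoters of 6 of the 7 genes, each from 250 bases before to 50 bases after the start site and 300 bases long. Motifs were searched on both strands. The ER stress element, CCAAT followed by 9 bases and CCACG, was found in Hspa5 (1 match), Hsp90b1 (2) and Calr (1). Of all 33469 rat promoters of this length, 22 (0.0657%) held it. Dnajb11 held the ER stress element II, ATTGG followed by 1 base and CCACG, which 17 promoters (0.0508%) held. The unfolded protein response element core, TGACGTGG, was in none of the 6 and in 0.595% of all promoters. Sdf2l1 and Pdia4 held none of the 3 motifs in this window. Sdf2l1 held 4 CCAAT boxes and 1 CCACG, which lie at other distances. CCAAT on either strand occurred in 37.5% of all promoters and CCACG in 31.6%. In the lines below, each written 5′ to 3′ on the gene's own strand, capitals mark whole elements, and in Sdf2l1 alone the separate CCAAT and CCACG letters of either strand.
Sdf2l1 promoter, GRCr8 chr11:97376628-97376927, plus strand: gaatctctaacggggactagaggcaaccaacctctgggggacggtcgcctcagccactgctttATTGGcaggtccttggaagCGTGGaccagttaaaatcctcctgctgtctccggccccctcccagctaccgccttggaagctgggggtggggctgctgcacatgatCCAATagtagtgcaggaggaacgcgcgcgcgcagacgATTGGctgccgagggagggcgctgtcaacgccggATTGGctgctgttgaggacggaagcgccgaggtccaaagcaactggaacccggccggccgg
Hspa5 promoter, GRCr8 chr3:38452766-38453065, plus strand, element from -43 to -25 of the start site: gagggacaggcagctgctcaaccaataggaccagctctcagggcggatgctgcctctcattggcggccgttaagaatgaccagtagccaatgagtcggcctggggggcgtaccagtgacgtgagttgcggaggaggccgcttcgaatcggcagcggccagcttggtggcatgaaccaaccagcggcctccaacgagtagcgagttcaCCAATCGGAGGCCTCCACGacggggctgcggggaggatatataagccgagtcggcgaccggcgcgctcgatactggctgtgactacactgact
Calr promoter, GRCr8 chr19:40213117-40213416, plus strand, element on the other strand from -232 to -214: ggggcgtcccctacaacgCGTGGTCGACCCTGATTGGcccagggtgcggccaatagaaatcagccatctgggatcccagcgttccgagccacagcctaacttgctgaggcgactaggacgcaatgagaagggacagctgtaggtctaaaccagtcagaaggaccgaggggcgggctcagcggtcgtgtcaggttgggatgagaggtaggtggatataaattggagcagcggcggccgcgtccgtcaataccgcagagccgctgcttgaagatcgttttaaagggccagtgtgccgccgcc
Hsp90b1, first element, GRCr8 chr7:23012441-23012479, minus strand, from -176 to -158: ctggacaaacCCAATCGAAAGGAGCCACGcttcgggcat
Hsp90b1, second element, GRCr8 chr7:23012337-23012375, minus strand, match on the other strand from -72 to -54: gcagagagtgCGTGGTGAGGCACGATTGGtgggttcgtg
Dnajb11, ER stress element II, GRCr8 chr11:91672790-91672820, minus strand, from -10 to 1: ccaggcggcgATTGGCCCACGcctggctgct
Among 27 other ER folding genes with a promoter in the table, 6 held at least 1 of the 3 motifs (Hyou1, Canx, Creld2, Dnajc3, Ero1b and Nucb1), beside 0.708% of all promoters. These are letter matches, and binding was not measured.

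Signals are given on the log2 scale after quantile normalization over all arrays, so a difference of 1 is a 2-fold change. For comparisons of time and treatment, the 5 regions with 12 grouped arrays each, that is all but the hippocampus and frontal cortex, were averaged for each treatment, time and replicate. This gave 12 values per gene, called 5-region means here, 2 for each treatment and time. The arrays were deposited in more than 1 scaling state: 45 had the same trimmed mean and the other 37 ranged from 34.1 to 171 in it. The ratio of 3′ to 5′ beta-actin signal, a measure of RNA integrity and labelling, ran from 1.73 to 6.03. In such tissue samples, fewer cells of a type and less RNA per cell cannot be told apart. Region markers followed the labels in part. The serotonin transporter Slc6a4 averaged 10.66 in dorsal raphe arrays and also 9.61 in locus coeruleus arrays, against 4.01 to 4.15 elsewhere. Dbh, which makes noradrenaline, averaged 8.34 in the locus coeruleus and 4.05 to 4.20 in the other 6 regions.

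Signals of most of these genes were lower at PM than at AM, with Sdf2l1 the clearest. The time of day entered the choice of the genes, so the PM minus AM values are a description, with no p-value. Where counts of these genes past a threshold are given for PM against AM, nothing is read from them. Sdf2l1, a stromal-cell-derived-factor-2-like component of the Hspa5 chaperone complex, had 5-region means of 7.63 and 7.55 in Sham at AM and of 7.11 and 7.25 in Sham at PM. In ADX they were 7.41 and 7.42 at AM and 7.11 and 7.12 at PM. In pADX they were 7.51 and 7.56 at AM and 7.27 and 7.22 at PM. All 6 PM values therefore lay below all 6 AM values, as they did for 0.335% of the 31042 probe sets. The mean was 7.51 ± 0.085 (SD, n = 6) at AM and 7.18 ± 0.075 (SD, n = 6) at PM. The difference was -0.33 (SE 0.03), a 1.26-fold lower signal at PM. It was -0.41 within Sham, -0.30 within ADX and -0.28 within pADX.

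Calr came next. Its 5-region means were 9.78 and 9.72 in Sham at AM and 9.51 and 9.61 at PM. In ADX they were 9.78 and 9.78 at AM and 9.36 and 9.42 at PM. In pADX they were 9.59 and 9.62 at AM and 9.60 and 9.42 at PM, so the times overlapped only in pADX. The PM minus AM difference was -0.22 (SE 0.05) over the treatments, and -0.19, -0.38 and -0.09 within Sham, ADX and pADX.

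Hspa5 had a difference of -0.13 (SE 0.04), and it was widest in ADX. In ADX its 5-region means were 11.25 and 11.26 at AM and 11.01 and 10.93 at PM, a difference of -0.29. In Sham they were 11.23 and 11.22 at AM and 11.15 and 11.12 at PM, a difference of -0.09. In pADX they were 11.11 and 11.14 at AM and 11.11 and 11.09 at PM, a difference of -0.03. PM was below AM in each treatment, although PM values of Sham overlapped with AM values of pADX.

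Hsp90b1 had a difference of -0.11 (SE 0.04), with non-overlapping times in Sham (10.40 and 10.25 at AM, 10.18 and 10.11 at PM) and in ADX (10.26 and 10.30 at AM, 10.10 and 10.17 at PM). In pADX, both AM values were 10.23 and the PM values 10.25 and 10.17, on either side of them. Pdia4 had a difference of -0.10 (SE 0.05), and its times overlapped in Sham and ADX. Its values in pADX were 8.16 and 8.10 at AM and 7.91 and 8.07 at PM.

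Manf and Dnajb11 did not share this pattern. Manf had a difference of -0.0013 (SE 0.06) over the treatments, made of opposite values: 0.09 within Sham, -0.20 within ADX and 0.10 within pADX. Its 5-region means in ADX were 8.77 and 8.77 at AM and 8.67 and 8.48 at PM, whereas in pADX they were 8.66 and 8.71 at AM and 8.75 and 8.82 at PM. Dnajb11 had a difference of 0.04 (SE 0.05), and its times overlapped in all 3 treatments. The difference within ADX minus that within Sham was -0.20 for Hspa5, -0.19 for Calr, -0.29 for Manf, 0.11 for Sdf2l1, 0.03 for Hsp90b1, -0.06 for Pdia4 and -0.02 for Dnajb11. None of the 7 passed an adjusted p of 0.05 for it in limma's fit, nor for pADX minus Sham, beside 0.0354% and 0.0451% of all probe sets. This does not show that the treatments were alike.

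**Figure D1:**
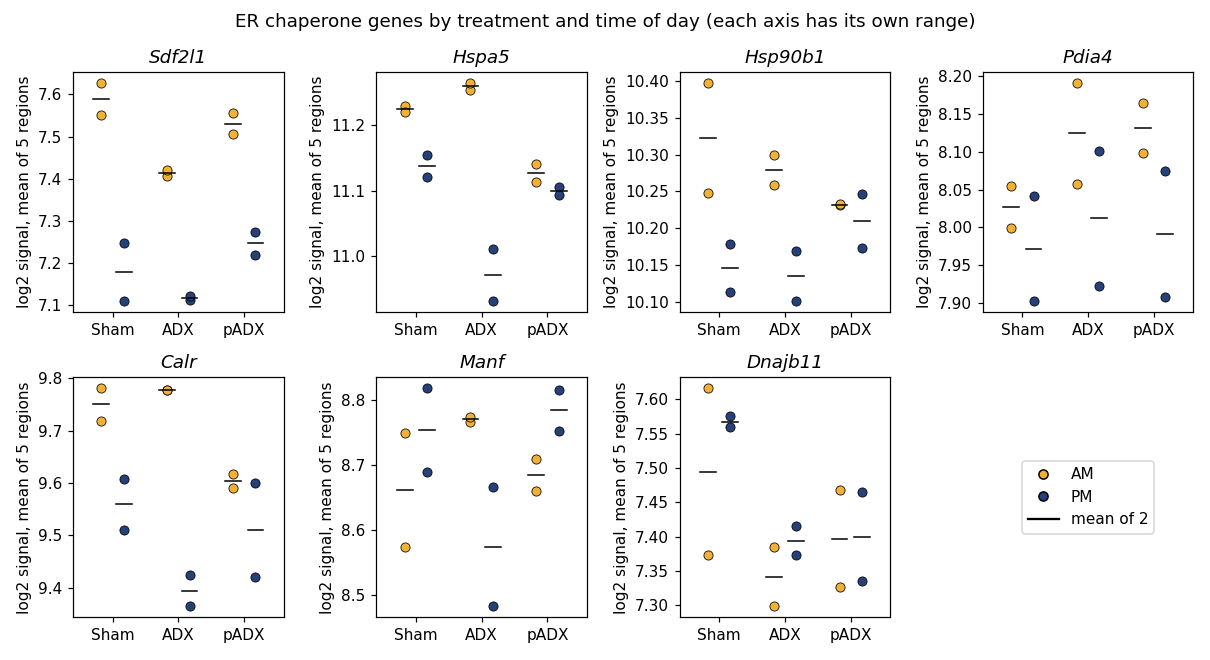
Log2 signal of each gene (vertical axis, mean of 5 regions) by treatment, with 2 AM and 2 PM values per treatment and a bar at their mean. In Sdf2l1 the PM values, 7.11 to 7.27, lie below the AM values, 7.41 to 7.63, in every treatment, while in Dnajb11 the times overlap.

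Across the genes, PM lay below AM without overlap in 4 of 7 genes in Sham, 5 in ADX and 3 in pADX, beside 16.4%, 18.3% and 15.9% of all probe sets. The limma fit over all probe sets placed 3 of them (0.00966%) past an adjusted p of 0.05 for PM against AM, of which Sdf2l1 was 1. Within a single treatment it placed 0.0773% past it in Sham, 0.029% in ADX and 0.00966% in pADX, and none of the 7 genes. Nothing is read from these counts, since this contrast led to the choice of Sdf2l1. The median difference of the 7 genes was -0.11, against 0 over all probe sets. Of the 7, 6 were below 0, Manf by only -0.0013, against 45.9% of all probe sets. Of all signals, 27.5% lay at the lower limit of the scale, which holds differences at 0. The 7 genes never did, so this background is unlike them. As deposited, without normalization, 5 of 7 were below 0 and the median was -0.10. Sdf2l1 stayed between -0.39 and -0.30 in the 25 alternatives tried. In the septum and amygdala, where every array had the common trimmed mean, its difference was -0.39 and that of Calr -0.39. The 10 grouped frontal cortex arrays, with 1 AM array each in Sham and ADX, also had this trimmed mean. The mean differences there were smaller, -0.17 for Sdf2l1 and -0.09 for Calr.

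Beta-actin 3′ to 5′ ratios of the 5-region sets ran from 3.21 to 3.89 at AM (median 3.37) and from 3.03 to 3.66 at PM (3.23), and 15 of 30 AM and 18 of 30 PM arrays had the common trimmed mean. With the actin ratio in the fit, the Sdf2l1 difference was -0.33 and the Calr difference -0.19. Of the lists of cell type markers, choroid plexus markers were lower at PM for 6 of 6 (median -0.14; Ttr -0.46, SE 0.46) and oligodendrocyte markers for 6 of 6 (median -0.05; Mobp -0.11, SE 0.03). Neuron markers were lower at PM for 6 of 7, with a median of -0.015. None of these markers passed an adjusted p of 0.05 in limma's fit. At an unadjusted p under 0.05 there were 0 choroid plexus markers, 1 oligodendrocyte marker and 0 neuron markers. The summed choroid plexus signal was 10.17 to 10.76 at AM and 9.97 to 10.55 at PM, with Kl at the lower limit of the scale. The summed oligodendrocyte signal was 14.03 to 14.21 at AM and 14.01 to 14.11 at PM. Their part in the lower chaperone signals was not tested.

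The direction held over most regions. With 7 regions and 3 treatments, less the hippocampus in pADX, there were 20 pairs of AM and PM arrays. Sdf2l1 was lower at PM in 19 of them, from -0.61 in the Sham locus coeruleus to 0.04 in the ADX dorsal raphe, its only pair that was not lower. Of the 31042 probe sets, 20, Sdf2l1 included, were lower in at least as many pairs, and the median probe set was lower in 9. Sdf2l1 had been selected on this contrast, so its place among them is a description and no support. The same rat may have given several regions, so the pairs may not be independent. Calr was lower in 17 of 20, Hspa5 and Hsp90b1 in 16 each, Pdia4 in 15, Dnajb11 in 10 and Manf in 9. A set of pairs without the hippocampus and dorsal raphe, like the pairs as deposited, was added after seeing the data. In the hippocampus the times of the pADX arrays are in doubt, and in the dorsal raphe scaling states and times coincided in Sham. In this set Sdf2l1 was lower in 15 of 15 pairs, Hsp90b1 in 14, Calr and Pdia4 in 13, Hspa5 in 12, and Manf and Dnajb11 in 8. It leaves out the only Sdf2l1 pair that was not lower, and in the dorsal raphe no Hsp90b1 pair was lower. The same count over all probe sets was not made for this set, so nothing is read from it. In the values as deposited Sdf2l1 was lower in 18 of 20, Manf in 12 and Pdia4 in 12.

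In Sham, Sdf2l1 in the locus coeruleus was 8.06 and 8.03 at AM and 7.46 and 7.43 at PM. In the hypothalamus it was 7.73 and 7.75 at AM and 7.12 and 7.40 at PM. In the septum of ADX rats it was 7.14 and 7.16 at AM and 6.39 and 6.83 at PM. In each of these the PM arrays lay below the AM arrays with no overlap. Over treatments its mean difference by region ran from -0.45 in the septum to -0.17 in the frontal cortex.

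Calr differed most in the amygdala and septum of ADX rats. In the ADX amygdala it was 9.91 and 9.87 at AM and 8.98 and 9.36 at PM, a difference of -0.72. In the ADX septum it was 10.06 and 9.90 at AM and 9.47 and 9.15 at PM, a difference of -0.67. In the amygdala of pADX rats the difference was -0.0063, with arrays at 9.32 and 9.76 at AM and 9.79 and 9.27 at PM. Hspa5 differed most in the dorsal raphe of ADX rats, with 11.54 and 11.51 at AM and 11.04 and 10.92 at PM.

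In the dorsal raphe the other 4 genes, Hsp90b1, Pdia4, Manf and Dnajb11, had mean differences above 0, at 0.06, 0.21, 0.15 and 0.18. Dnajb11 was also above 0 in the septum and hypothalamus (0.05 each), and Manf in the hypothalamus (0.0084). Dnajb11 in the ADX dorsal raphe was 7.14 and 7.13 at AM and 7.51 and 7.55 at PM, and Pdia4 there was 7.83 and 7.99 at AM and 8.32 and 8.44 at PM. Beta-actin ratios were also the widest there, from 3.12 to 6.03, and only 2 of its 12 arrays had the common trimmed mean. The part of these in the difference was not tested. A test of whether the time difference varied by region passed for 0.0161% of all probe sets, and none is given for the 7 genes for the reason above.

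**Figure D2:**
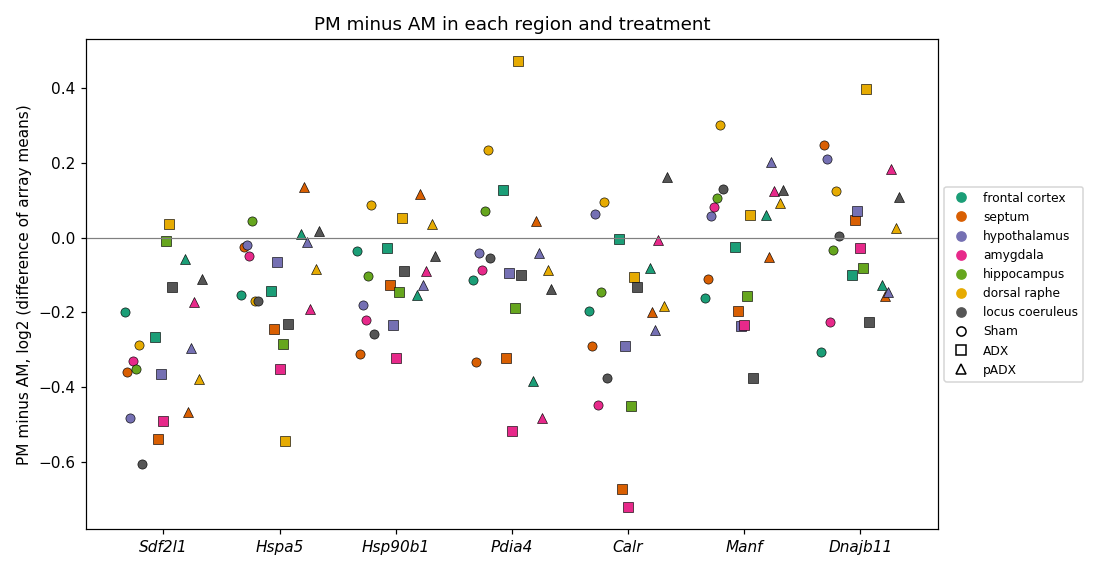
PM minus AM difference in log2 signal (vertical axis) for each gene, with 1 point per region and treatment (colour for region, shape for treatment). Sdf2l1 has 19 of 20 points below 0 and Manf 9 of 20, and the points far above 0 for Pdia4 and Dnajb11 are from the ADX dorsal raphe.

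Treatment changed none of the 7 genes past the threshold over the 5 regions. This comparison asks whether loss of the adrenal glands altered brain chaperone RNA. In limma's fit with treatment and time as terms, 0.132% of probe sets passed an adjusted p of 0.05 for ADX against Sham, 0.00644% for pADX against Sham and 0.0483% for ADX against pADX. At an unadjusted p under 0.05 the counts were 2, 1 and 1 of the 7 genes, and 2801, 2391 and 2491 of all probe sets. ADX and pADX were compared with the same Sham arrays.

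Dnajb11, the J-domain co-chaperone, had the widest difference. Its 5-region means were 7.37, 7.62, 7.56 and 7.58 in Sham, 7.30, 7.38, 7.37 and 7.41 in ADX, and 7.33, 7.47, 7.46 and 7.34 in pADX, in each case with the AM values first. One Sham AM value lay among those of the other treatments and the other 3 lay above all of them. The change was -0.16 (SE 0.06, adjusted p = 0.422) in ADX and -0.13 (SE 0.06, adjusted p = 0.640) in pADX. The treatment change of Sdf2l1 was -0.12 in ADX (SE 0.04, adjusted p = 0.394) and 0.0049 in pADX (SE 0.04, adjusted p = 1). At AM, Sdf2l1 was lower in ADX (7.41 and 7.42) than in Sham (7.63 and 7.55), and at PM the groups overlapped. The change was -0.18 at AM (adjusted p = 0.408) and -0.06 at PM (adjusted p = 0.809) by limma, so neither passed. How many of all probe sets lay apart in this way at AM was not counted.

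For the other 5 genes the change in ADX was -0.07 (SE 0.05) for Hspa5, -0.03 (SE 0.04) for Hsp90b1, 0.07 (SE 0.06) for Pdia4, -0.07 (SE 0.06) for Calr and -0.04 (SE 0.08) for Manf. In pADX it was -0.07 (SE 0.05) for Hspa5, -0.01 (SE 0.04) for Hsp90b1, 0.06 (SE 0.06) for Pdia4, -0.10 (SE 0.06) for Calr and 0.03 (SE 0.08) for Manf. By time, the ADX change was 0.03 at AM and -0.17 at PM for Hspa5, 0.03 and -0.17 for Calr, and 0.11 and -0.18 for Manf. The smallest adjusted p of these was 0.146, for Hspa5 at PM, by limma. Hsp90b1 and Pdia4 kept their sign at both times. None of these changes passed the threshold, which does not show that the groups were alike. The scale mattered here. In the values as deposited all 7 genes passed the threshold for ADX against Sham, at -0.45 to -0.22, while the median of all probe sets moved by -0.21 and 13715 of them passed. Pdia4 then had the opposite sign.

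Of 4 blood markers measured, 4 were below Sham in ADX (median -0.86), with 1 past an adjusted p of 0.05 and 2 at an unadjusted p under 0.05, and with the summed signal at 9.48 to 10.57 in ADX and 11.33 to 11.73 in Sham, and Ahsp at the lower limit. Alas2, the haem synthesis enzyme of red cells, fell by 1.62 (SE 0.20, adjusted p = 0.0304). Of 7 astrocyte markers 5 were below Sham and 2 above, and 1 passed: Aldoc, which fell by 0.32 (SE 0.04, adjusted p = 0.0304). Gfap, the astrocyte filament protein, was at 0.39 (SE 0.08, adjusted p = 0.152). Arrays at the common trimmed mean were 14 of 20 in Sham, 8 of 20 in ADX and 11 of 20 in pADX. Beta-actin ratios of the 5-region sets were 3.18 to 3.89 in Sham, 3.03 to 3.55 in ADX and 3.21 to 3.66 in pADX. Choroid plexus markers were above Sham for 6 of 6 (median 0.11). Whether these bear on the small chaperone differences was not tested.

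By region, Dnajb11 was below Sham in 7 of 7 regions in ADX, from -0.36 in the frontal cortex to -0.10 in the locus coeruleus. In pADX it was below Sham in 6 of 6, the hippocampus left out, from -0.48 in the frontal cortex to -0.07 in the amygdala. Its frontal cortex signal was 7.93 ± 0.20 (SD, n = 3) in Sham, 7.57 ± 0.10 (n = 3) in ADX and 7.48 ± 0.09 (n = 4) in pADX. With all arrays, the smallest adjusted p of Dnajb11 over the regions was 0.251 in ADX and 0.257 in pADX by limma. In the frontal cortex, Sham had 1 AM array and 2 PM arrays. Without Sham PM replicate 1 there, the Dnajb11 changes in this region were -0.43 in ADX and -0.55 in pADX. Sdf2l1 was below Sham in 6 of 7 regions in ADX, from -0.34 in the septum to 0.10 in the dorsal raphe. Calr was -0.45 in the amygdala in ADX and -0.44 in pADX, but 0.14 and 0.15 in the septum. Over all 7 genes the smallest adjusted p in any region was 0.205 for ADX against Sham. The test of whether a treatment change varied by region gave adjusted p from 0.158 (Hsp90b1) to 1 (Dnajb11), while 0.496% of probe sets passed it.

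**Figure D3:**
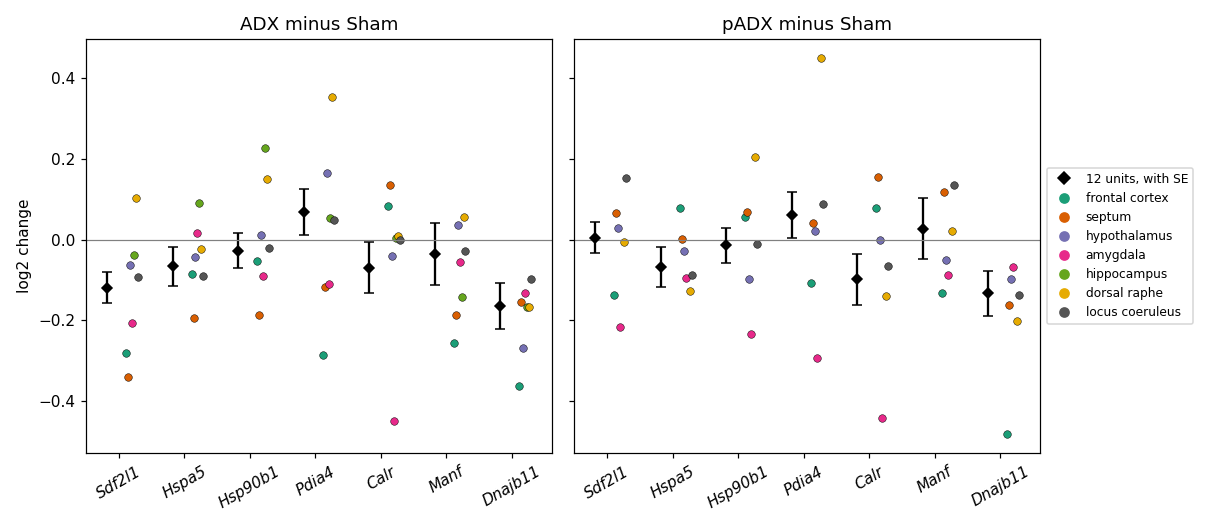
Log2 change against Sham (vertical axis) in ADX and in pADX for each gene: black diamonds with SE are from the 12 five-region means, coloured points from each region alone. Dnajb11 lies below 0 in all regions shown, and no diamond passed an adjusted p of 0.05; in the values as deposited the Pdia4 diamond in ADX lies at -0.22 instead of 0.07.

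The genes also differed between regions. By an F test over the 80 grouped arrays, with treatment, time and replicate as a block, 6 of the 7 passed an adjusted p of 0.05, beside 65.3% of all probe sets, so the count is near that of the array as a whole. The exception was Calr. Of 21 pairs of regions, Sdf2l1 passed in 17, Hspa5 in 15, Hsp90b1 and Manf in 11, Pdia4 and Dnajb11 in 9 and Calr in 1, against a median of 6 over all probe sets.

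Sdf2l1 was highest in the locus coeruleus, at 7.76 ± 0.23 (SD, n = 12; range 7.43 to 8.12, median 7.75). The hypothalamus followed with 7.49 ± 0.24, the dorsal raphe with 7.42 ± 0.17, the hippocampus with 7.19 ± 0.18 (n = 10), the septum with 7.13 ± 0.34, the frontal cortex with 6.97 ± 0.20 (n = 10) and the amygdala with 6.92 ± 0.24. The locus coeruleus exceeded the hypothalamus by 0.28 (adjusted p = 0.00144) and the amygdala by 0.84, which is 1.79-fold (adjusted p = 1.49e-16). Neighbours in the rest of this order did not differ past the threshold, except the dorsal raphe and hippocampus (0.20, adjusted p = 0.0260). The locus coeruleus was also highest for Sdf2l1 in the values as deposited and after scaling to a common trimmed mean.

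Hspa5, Hsp90b1, Pdia4 and Manf were highest in the hypothalamus. In the values as deposited, in which no hypothalamus array had the common trimmed mean, the septum came first for all 4. The summed pituitary markers had a median of 9.76 in the hypothalamus (6.81 to 11.18), against medians of 6.85 to 7.04 elsewhere. For markers of meninges and fibroblasts it was 11.15, against 8.79 to 10.08 elsewhere. The part of such tissue in the hypothalamus signals was not tested. Hspa5 averaged 11.27 ± 0.05 (SD, n = 12) in the hypothalamus and 10.93 ± 0.13 (n = 10) in the frontal cortex, its lowest region, a fitted difference of 0.33 (adjusted p = 7.87e-09). Hsp90b1 averaged 10.45 ± 0.14 and 10.04 ± 0.12 in the same regions, a difference of 0.39 (adjusted p = 1.61e-08). Pdia4 averaged 8.23 ± 0.19 and 7.77 ± 0.20 there, a difference of 0.46 (adjusted p = 1.92e-05). Manf averaged 9.03 ± 0.12 in the hypothalamus and 8.45 ± 0.11 in the amygdala, a difference of 0.58 (adjusted p = 2.92e-12), and exceeded its next region, the locus coeruleus, by 0.24 (adjusted p = 0.00229). For Hspa5 and Pdia4 the regions next in order did not differ from the hypothalamus past the threshold (0.04 for Hspa5 in the dorsal raphe, 0.09 for Pdia4 in the locus coeruleus), and for Hsp90b1 the septum did (0.16, adjusted p = 0.0117).

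Dnajb11 had another order, with 7.65 ± 0.20 (n = 10) in the hippocampus, 7.64 ± 0.23 (n = 10) in the frontal cortex and 7.34 ± 0.17 (n = 12) in the septum, although as deposited the frontal cortex came first and the hypothalamus last. The hippocampus exceeded the septum by 0.31 (adjusted p = 0.000328), and no neighbours in its order differed past the threshold. Calr ran from 9.50 ± 0.18 in the locus coeruleus to 9.70 ± 0.22 in the hippocampus and missed the F test (adjusted p = 0.267), although its values as deposited passed it. Its arrays were widest in the amygdala, from 8.98 to 10.22 with a median of 9.78.

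**Figure D4:**
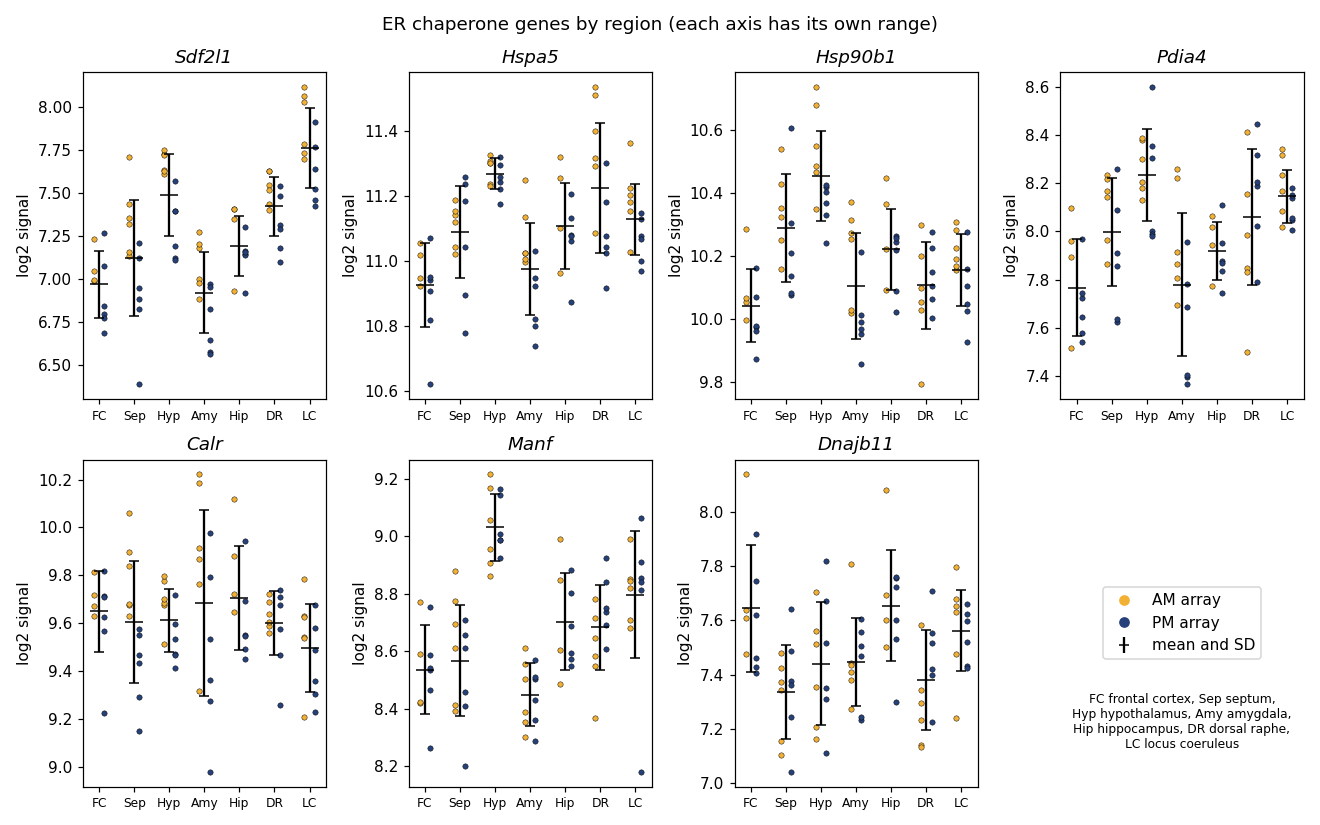
Log2 signal of each gene (vertical axis) on the 80 grouped arrays by region, coloured by time, with mean and SD. Sdf2l1 peaks in the locus coeruleus (7.76) and Manf in the hypothalamus (9.03); in the values as deposited Manf is highest in the septum.

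The other genes of the ER folding machinery lay on both sides of 0 at PM. These lists, like the genes themselves, were drawn up with earlier results known. Of 31 ER folding partners measured, 18 were below 0 at PM (median -0.03), against 45.9% of all probe sets. None passed an adjusted p of 0.05 in limma's fit, and 4 were lower and 1 higher at an unadjusted p under 0.05, as were 3241 of all 31042 probe sets in either direction. The 3 with the largest differences, whatever their p, were Hyou1, an Hsp110-type chaperone (-0.31, SE 0.39), Ganab, the glucosidase II subunit that trims glycans (-0.17, SE 0.07), and Erp44 (-0.12, SE 0.04). Of 22 stress sensors and regulators, 8 were below 0 (median 0.02), none passed, and 1 was lower and 3 higher at the unadjusted level. Creb3l1 was higher by 0.17 (SE 0.09), and Herpud1, an unfolded protein response target in ER degradation, was higher by 0.15 (SE 0.05, adjusted p = 0.357) and Nfya by 0.15 (SE 0.06). Xbp1, named after its value was seen because it acts at these elements, was at -0.0098 (SE 0.03). Of 29 genes of ER degradation and translocation, 12 were below 0 (median 0.0041), none passed, and 2 were lower and 2 higher at the unadjusted level. Nploc4 was at -0.13 (SE 0.06), Edem1 at 0.12 (SE 0.05) and Os9 at -0.11 (SE 0.07).

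Of 31 cytosolic and mitochondrial chaperones, 18 were below 0 at PM (median -0.02) and none passed, with 3 lower and 2 higher at an unadjusted p under 0.05. Within ADX, 21 of the 31 were below 0 and 11 were lower and 0 higher at the unadjusted level, with none past the adjusted threshold, while 3251 of all probe sets had an unadjusted p under 0.05. The heat-shock genes Hspa1a and Dnajb1 had PM minus AM differences of 0.33 (SE 0.11, adjusted p = 0.379) and 0.30 (SE 0.07, adjusted p = 0.192). Within Sham, ADX and pADX, the Hspa1a difference was 0.56, -0.10 and 0.52, and the Dnajb1 difference was 0.48, 0.07 and 0.34. Stip1, which links Hsp70 and Hsp90, was at -0.14 (SE 0.02, adjusted p = 0.161). For ADX against Sham, no gene of the 4 lists passed in limma's fit. At an unadjusted p under 0.05, 1 ER folding partner was higher and 2 lower, 2 stress sensors or regulators higher and 1 lower, 1 degradation gene higher and 1 lower, and 2 cytosolic or mitochondrial chaperones higher and 1 lower. Ppib, a prolyl isomerase of the ER, was at 0.12 (SE 0.03, adjusted p = 0.266), Cryab at -0.53 (SE 0.21, adjusted p = 0.505) and Dnajb6 at 0.75 (SE 0.21, adjusted p = 0.318).

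The genes varied together to different degrees over the 12 five-region means. The correlations of Sdf2l1, Hspa5, Hsp90b1 and Calr with each other ran from 0.67 to 0.89, while Manf reached at most 0.49 with any of the others, Pdia4 0.43 and Dnajb11 0.04. These 12 values share treatment and time, and the correlations describe that shared pattern with no test. On the 80 arrays with each region centred, the same 4 genes gave 0.35 to 0.44, and Pdia4 gave 0.50 with Hsp90b1, above any pair of the 4, 0.31 with Sdf2l1 and 0.29 with Calr. The genes outside the 7 whose 5-region means followed their average most closely, among 12021 candidates, were Stip1 (r = 0.95), the disulfide isomerase Pdia6 (0.94), Ppp1r10 (0.93), Gabrb1 (0.93), Tardbp (0.92), Pyurf (0.92), Thtpa (0.92), Ubqln1 (0.92), Gfra2 (0.91) and Ascc3 (0.90). On the 80 arrays with each region centred, Stip1 kept 0.71 and Pdia6 0.59, and Tardbp had 0.02. Pdia6 was at -0.08 at PM (SE 0.02).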

How the data were processed

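The authors deposited 1 linear intensity per probe set and array; which software and scaling made it was not given in the sources used here. Intensities were quantile normalized over 82 arrays, set to at least 16 and log2 transformed, and 57 control probe sets were left out, leaving 31042. The platform annotation gave 20826 of them 1 symbol, 436 several and 9780 none, and 20758 matched RefSeq (GRCr8) genes. Time and treatment were tested with limma 3.58.1 (lmFit and eBayes with trend, R 4.3.3) on 12 means over 5 regions, with Benjamini-Hochberg adjustment over all probe sets. Regions were tested on 80 arrays. The precision is limited by 2 arrays per group. The p-values measure the spread left after each fit, which may not be a spread between animals. With treatment and time as additive terms, it also holds any difference in the treatment change between AM and PM. In the region test it also holds changes with treatment or time that differ between regions. The 7 genes and all lists were chosen with earlier results of these data known. From each list and contrast, genes past an adjusted p of 0.05 (at most 5) or, with none, the 3 with the largest absolute change could be named, and the 10 genes with the highest Pearson correlation with the mean of the 7. Markers of neurons, glia, vessels, choroid plexus, meninges, blood and pituitary were measured too. Region was taken from titles and descriptions, which the source names contradict for several regions. The 2 arrays without treatment or time labels entered no comparison. Alternatives were the values as deposited, other scaling, floor, filter and blocks, and leaving out regions or replicates. The letter b was taken as replicate 2. Correlations between same-numbered deviations were -0.095 to 0.086. With 2 arrays per group, these cannot show whether same-numbered arrays came from the same rat. The fits were checked on simulated data.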

Additional observations from a re-analysis of the deposited data

Results flagged for a closer look

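The values of 6 arrays or means lay far from the others of their treatment, among 161 sets of 4 or 6 values tested, where chance alone gives about 1 in 20. In the amygdala of Sham rats, Hspa5 had its lowest value, 10.92, in PM replicate 2, with the next at 11.03. Hsp90b1 in the septum of pADX rats was highest in PM replicate 1, at 10.61 against 10.35 for the next. In the amygdala of pADX rats Hsp90b1 was lowest in PM replicate 2, at 9.86 against 10.01. The 5-region mean of Calr in pADX was lowest in PM replicate 2, at 9.42 against 9.59. Manf in the locus coeruleus of pADX rats was highest in PM replicate 2, at 9.06 against 8.85, and Dnajb11 in the septum of pADX rats was lowest in PM replicate 2, at 7.04 against 7.34.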

How the results depend on the processing

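Each contrast was recomputed under 26 alternatives, 12 of which left out 1 five-region mean; PM against AM over all treatments had 25, which were chosen after seeing the data. Counts for PM against AM support nothing, since that contrast led to the choice of genes. With 1 probe set per gene, averaging probe sets gave no other value. Of the 7 genes, the number called for PM against AM was 0 as deposited, after trimmed-mean scaling, in the septum and amygdala only, without the septum, the amygdala or the dorsal raphe, and with the actin ratio, 3 on 60 arrays with a random block (Sdf2l1, Hspa5, Calr), and 0 to 1 without 1 replicate. Within Sham it was 1 (Sdf2l1) with a filter on low values or on 60 arrays, and 0 to 1 without 1 replicate. Within ADX it was 1 (Hspa5) with the filter or without the amygdala, 3 on 60 arrays, and 0 to 1 without 1 replicate. As deposited, it was 7 for ADX against Sham and 2 for ADX against pADX (Sdf2l1, Dnajb11), beside 13715 and 3581 of all probe sets. In single regions as deposited, it was 2 for ADX against Sham in the dorsal raphe (Hspa5, Dnajb11) and 3 in the locus coeruleus (Sdf2l1, Hspa5, Dnajb11). In the frontal cortex it was 0 to 1 without 1 replicate for both ADX and pADX against Sham. For these single-region alternatives the calls over all probe sets were not counted, so nothing is read from the calls of the 7 genes there. The letter b as a replicate block changed no call of the 7 genes, and gave 21 probe sets for ADX against Sham and 6 for PM against AM.

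Signs turned for small treatment changes. For ADX against Sham, Pdia4 was -0.22 as deposited, -0.11 in the septum and amygdala and -0.0031 without the dorsal raphe; Hsp90b1 0.013 without the septum and 0.027 with the actin ratio; Manf 0.0025 and 0.0066 in the same settings; Calr 0.026 without the amygdala. For pADX against Sham, Sdf2l1 was -0.11 as deposited, -0.075 in the septum and amygdala, -0.010 without the septum, -0.0012 without the hypothalamus and -0.032 without the locus coeruleus; Pdia4 -0.059, -0.13 and, without the dorsal raphe, -0.035; Manf -0.092 as deposited; Hsp90b1 0.0076 without the hypothalamus, 0.042 without the amygdala and 0.021 with the actin ratio. Without 1 replicate, Hsp90b1 ranged from -0.051 to 0.013 in ADX and -0.045 to 0.026 in pADX, Manf from -0.086 to 0.036 and -0.024 to 0.069, and Sdf2l1 in pADX from -0.036 to 0.034. The cause was not tested.

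Over all probe sets, calls ranged from 0 to 394 for PM against AM, 3 to 13715 for ADX against Sham, 0 to 40 for pADX against Sham, 1 to 3581 for ADX against pADX, 0 to 280 within Sham, 0 to 240 within ADX and 0 to 150 within pADX.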

Other observations

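The 2 frontal cortex arrays whose labels give no treatment or time are reported as values only. Sdf2l1 was 6.92 and 6.99 on them, within the 6.69 to 7.27 of the 10 grouped frontal cortex arrays. Hspa5 was 10.70 and 11.09 (grouped arrays 10.62 to 11.07), and Hsp90b1 was 10.34 and 10.07 (9.87 to 10.28). Pdia4 was 7.37 and 8.03 (7.51 to 8.10), and Calr was 9.58 and 9.68 (9.22 to 9.82). Manf was 8.52 and 8.48 (8.26 to 8.77), and Dnajb11 was 7.51 and 7.53 (7.41 to 8.14).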
